A study of Mus musculus with 42 samples.

Results

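The genes described here encode subunits of the receptors for glutamate and for GABA, the main excitatory and inhibitory transmitters of the brain. They were chosen by receptor class, a rule that uses no measured difference. Of 31 listed genes, 30 had a probe set annotated to that gene and no other: 4 AMPA, 5 NMDA, 5 kainate, 1 delta, 6 metabotropic glutamate and 9 GABA-A receptor genes, out of 18193 genes on the arrays. Grin1, the subunit present in all NMDA receptors, had no such probe set listed and was not analysed here. Where a gene had several probe sets (21 of 30), the one with the highest mean over all 42 arrays stood for the gene. The difference between genes in signal depends on their probes, so levels are compared between samples only, never between genes.

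The samples were snap-frozen, dissected striatum and hippocampus of C57BL6 mice, profiled as total RNA on single-colour Affymetrix arrays. One genotype was wild type (WT) and the other was labelled knockout (KO) of PDE10A, a phosphodiesterase that degrades cyclic nucleotides and is abundant in the projection neurons of the striatum. Each genotype received vehicle or an inhibitor of PDE10; the labels name no compound, dose, treatment time or age. Striatum was represented by 5 WT vehicle, 6 WT inhibitor, 5 labelled KO vehicle and 4 labelled KO inhibitor arrays, and hippocampus by 6, 6, 5 and 5 arrays in the same order. Values are log2 signals after RMA (robust multi-array average), and a log2 difference of 1 is a doubling. The labels do not say whether arrays within a group stem from different mice, so all p-values refer to the spread among these arrays, and the number of arrays limits the precision.

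AMPA, NMDA and kainate receptors are ion channels assembled from several subunits, and the choice of subunits sets how fast the channel closes, whether it passes calcium and where it is anchored. Metabotropic glutamate receptors are G protein-coupled; those of group I raise intracellular calcium, and those of groups II and III lower cyclic AMP, often at the presynaptic terminal. GABA-A receptors are chloride channels; most hold alpha, beta and gamma subunits and sit at synapses, while those with the delta or the alpha 5 subunit often lie outside synapses and carry tonic inhibition. The striatum consists mostly of GABAergic projection neurons that receive glutamatergic input from cortex and thalamus. The hippocampus consists mostly of glutamatergic pyramidal and granule neurons.

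Some arrays stood apart. Pde10a, the targeted gene, had a mean log2 signal of 12.32 ± 0.26 (SD, n = 5) in WT vehicle and 12.35 ± 0.22 (n = 5) in labelled KO vehicle striatum (difference 0.03 ± 0.16 SE, adjusted p = 0.997 by limma). It therefore does not separate the genotype labels in vehicle-treated striatum. In hippocampus it read 8.94 to 9.04 in WT vehicle and 9.04 to 10.16 in labelled KO vehicle (difference 0.47 ± 0.20 SE, adjusted p = 0.710 by limma). Hippocampal WT inhibitor arrays read 8.54 to 9.88 and labelled KO inhibitor arrays 9.51 to 9.81. The mean signal of the 1 probe set that stood for Pde10a was thus not lower in labelled KO than in WT vehicle arrays of either region. The protein was not measured, so this does not show whether the enzyme was present. The word labelled is kept for the KO arrays throughout. A score from 15 other genes of chromosome 17, which carries Pde10a, was taken for each region from the genes that separated the genotype labels best in the other region. Scaled to a median of 0 in WT vehicle and 1 in labelled KO inhibitor arrays, it put 8 arrays on the opposite side of 0.5 from their label. In striatum these were labelled KO vehicle array 25 (score 0.073) and WT inhibitor arrays 13, 14 and 15 (0.583, 0.855 and 0.594). Of these, arrays 13 and 15 lay only just over the midpoint. In hippocampus the arrays were labelled KO vehicle 25 and 26 (-0.002 and 0.106) and WT inhibitor 12 and 14 (1.04 and 0.79). No receptor gene was among the score genes, and results that rest on these arrays are given with and without them. Hippocampal WT inhibitor array 13 had a mean of 6.53 over 7 markers of dentate and CA neurons, against 8.42 to 9.20 on the other hippocampal arrays and 6.175 to 6.999 on the striatal ones. Its mean over glutamatergic neuron markers was 9.39, within the 9.31 to 9.61 of the others. The tissue labels were otherwise borne out: markers of striatal projection neurons averaged 11.0 to 12.0 on striatal and 7.45 to 7.99 on hippocampal arrays.

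The region results below turn on pairs of related genes with opposite directions, and the 250 bases before the start of 3 such pairs are shown so that their promoters can be set side by side. The sequences are RefSeq reference sequence of build GRCm38.p6, written 5′ to 3′ along the gene, with GC boxes (GGGCGG on either strand, the core site of Sp-family factors) in capitals. The pairs are the adjacent GABA-A genes Gabra5 (chr7:57510060-57510309, minus strand) and Gabrg3 (chr7:57387216-57387465, minus strand), the group II receptors Grm2 (chr9:106656110-106656359, minus strand) and Grm3 (chr5:9725353-9725602, minus strand), and the kainate subunits Grik4 (chr9:42944372-42944621, minus strand) and Grik3 (chr4:125490446-125490695, plus strand). In each pair the first gene was lower and the second higher in striatum than in hippocampus.
Gabra5: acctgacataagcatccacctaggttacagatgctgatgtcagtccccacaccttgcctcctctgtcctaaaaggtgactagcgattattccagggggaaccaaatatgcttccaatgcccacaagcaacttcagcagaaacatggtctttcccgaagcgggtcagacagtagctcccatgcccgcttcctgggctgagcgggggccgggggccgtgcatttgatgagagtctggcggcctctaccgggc
Gabrg3: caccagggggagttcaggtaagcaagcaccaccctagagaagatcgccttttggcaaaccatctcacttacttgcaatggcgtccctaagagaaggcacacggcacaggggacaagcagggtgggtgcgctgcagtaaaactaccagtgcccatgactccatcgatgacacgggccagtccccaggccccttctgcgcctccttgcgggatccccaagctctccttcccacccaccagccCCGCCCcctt
Grm2: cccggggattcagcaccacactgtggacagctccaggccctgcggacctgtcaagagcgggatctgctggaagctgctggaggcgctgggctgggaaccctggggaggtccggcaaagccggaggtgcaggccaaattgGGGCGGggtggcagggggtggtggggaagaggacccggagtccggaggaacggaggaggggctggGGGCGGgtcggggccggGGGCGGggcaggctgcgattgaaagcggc
Grm3: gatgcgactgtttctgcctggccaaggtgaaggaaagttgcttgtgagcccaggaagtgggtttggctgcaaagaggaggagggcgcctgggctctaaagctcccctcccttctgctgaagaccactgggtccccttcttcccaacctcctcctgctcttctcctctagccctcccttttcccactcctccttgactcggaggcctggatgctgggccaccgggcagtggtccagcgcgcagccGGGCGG
Grik4: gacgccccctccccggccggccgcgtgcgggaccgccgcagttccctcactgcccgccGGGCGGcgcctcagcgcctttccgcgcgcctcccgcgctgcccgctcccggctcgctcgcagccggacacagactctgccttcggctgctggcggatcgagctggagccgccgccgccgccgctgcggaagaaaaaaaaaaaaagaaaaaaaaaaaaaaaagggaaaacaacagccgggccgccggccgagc
Grik3: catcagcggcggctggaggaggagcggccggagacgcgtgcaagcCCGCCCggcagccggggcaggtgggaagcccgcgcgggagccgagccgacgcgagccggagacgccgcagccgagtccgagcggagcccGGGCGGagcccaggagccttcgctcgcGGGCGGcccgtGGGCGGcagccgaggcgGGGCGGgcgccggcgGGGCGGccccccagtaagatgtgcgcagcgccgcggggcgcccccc
The windows held 0 GC boxes in Gabra5, 1 in Gabrg3, 3 in Grm2, 1 in Grm3, 1 in Grik4 and 6 in Grik3, so the count did not follow the direction in these 6. The promoter table held windows for 20 of the 30 genes, 27 windows in all. A GC box was present in 13 of 27 (48.1%), against 32.7% of all 32851 windows of the same length. A CCAAT box (CCAAT) was in 11 (40.7% against 33.8%), a TATA box (TATAAA) in 3 (11.1% against 12.4%), and the core TGACG of the cyclic AMP response element in 1, a window of Grm8 (3.7% against 17.8%); both strands were searched and none of these 4 motifs contains another. The full element TGACGTCA, which contains this core, was in 0 of 27 windows against 1.55%. Median GC content was 61.2% in these windows and 52.4% in all. A match describes letters only and is no evidence of binding.

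Striatum and hippocampus were compared within each of the 4 combinations of genotype label and treatment, which share no arrays. In WT vehicle tissue, 8 of 30 receptor genes were higher and 12 lower in striatum (limma, Benjamini-Hochberg adjusted p under 0.05 over all genes), against 15.9% and 17.9% of all genes. In the WT inhibitor arrays the counts were 11 higher and 13 lower (background 18.4% and 17.2%), in labelled KO vehicle 9 and 11 (12.5% and 14.8%), and in labelled KO inhibitor 7 and 10 (10.6% and 15.5%). The median size of the difference in WT vehicle was 0.42 for the receptor genes and 0.14 for all genes on the log2 scale. In all 4 conditions 7 receptor genes were higher (23.3%, against 7.34% of all genes): Grik3, Grm3, Grm4, Grm5, Gabra4, Gabrg3 and Gabrd. Another 10 were lower in all 4 (33.3%, against 10.1%): Gria1, Gria2, Grin2a, Grin3a, Grik1, Grik4, Grm2, Gabra2, Gabra5 and Gabrb1. In none of the 4 did Gria4, Grin2d, Grm8, Gabrb2 or Gabrg1 pass. Without the 8 arrays with a doubtful label, 6 of the 7 and 9 of the 10 were still called in all 4, with Grm5 and Gabra2 lost. Of all 18193 genes, 1068 were then higher and 1371 lower in all 4, against 1336 and 1840 with all arrays. Without hippocampal array 13, all 7 and all 10 were kept, beside 1371 higher and 1874 lower of all genes. Bulk tissue cannot tell fewer cells of a type from less RNA per cell, and this holds for every region difference below. Where the regions are said not to overlap for a gene, the share of all genes without overlap was not counted.

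**Figure D1:**
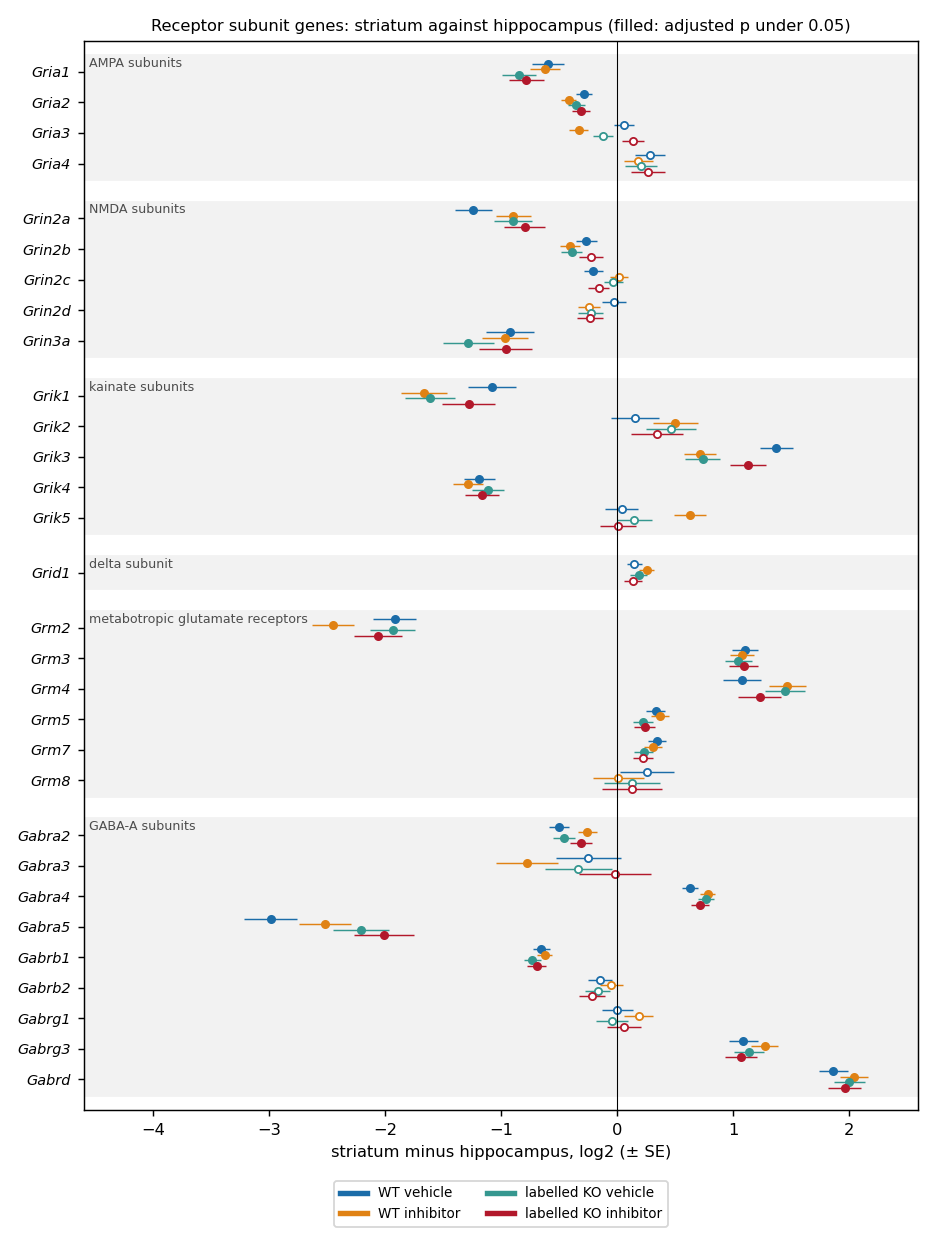
Difference in log2 signal between striatum and hippocampus (x axis, ± SE) for 30 receptor genes grouped by class (y axis), 1 colour for each genotype label and treatment, filled where the adjusted p was under 0.05. Gabra5 and Grm2 lie farthest to the left (lower in striatum) and Gabrd farthest to the right, in all 4 conditions.

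Among AMPA subunits, the main carriers of fast excitation, both Gria1 and Gria2 were lower in striatum and neither of the others was called in WT vehicle tissue. Gria1 (GluA1, the subunit moved into synapses during potentiation) had striatal signals of 10.85 to 11.49 (median 11.19, 20 arrays) and hippocampal ones of 11.06 to 12.22 (median 11.95, 22 arrays). The lowest hippocampal value, 11.06, was that of array 13, and the next, 11.46 on WT vehicle array 5, also lay within the striatal range. Its WT vehicle difference was -0.59 ± 0.14 (1.51-fold lower, adjusted p = 8.24e-04), and the other conditions lay between -0.85 and -0.62. Gria2 (GluA2, which blocks calcium entry) differed by -0.28 ± 0.07 (adjusted p = 0.00133) in WT vehicle and by -0.31 to -0.42 elsewhere; its 2 probe sets of lower signal gave -0.06 and 0.02 in WT vehicle and were called lower in the WT inhibitor and labelled KO vehicle arrays. Gria4 (GluA4, typical of fast-spiking interneurons) read 0.18 to 0.28 above hippocampus but never passed with all arrays (adjusted p = 0.0932 in WT vehicle), and the mean of its probe sets gave -0.01 in both WT conditions. Without hippocampal array 13, its difference in the WT inhibitor arrays was 0.33 (adjusted p = 0.0113). Gria3 passed in the WT inhibitor arrays alone (-0.33 ± 0.08, adjusted p = 9.61e-04), where its other probe set gave -0.13 with no call. That other probe set was called higher in striatum in the labelled KO inhibitor arrays (0.40). It gave 0.30 in WT vehicle and 0.13 in labelled KO vehicle with no call. Gria3 is taken up with the drug effect.

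Of 5 NMDA subunits none was called higher in striatum in any condition. Grin3a (GluN3A, which lowers calcium flow and is best known from immature synapses) differed by -0.93 ± 0.21 in WT vehicle (1.90-fold lower, adjusted p = 4.86e-04) and by -0.96 to -1.28 in the others. Its 20 striatal signals ran from 5.90 to 7.67 (median 6.87) and its 22 hippocampal ones from 7.46 to 8.38 (median 7.90), so that only the top of the striatal range reached the hippocampal arrays. Grin2a (GluN2A, the subunit of mature synapses) did not overlap between regions: 4.16 to 5.03 in striatum and 5.06 to 6.06 in hippocampus (WT vehicle difference -1.24 ± 0.16, adjusted p = 4.63e-08). These signals lie under the median of all probe sets on the arrays (6.05 to 6.12), there are no detection calls in the table used, and a filter on low signals removed this gene alone among the 30. Grin2b (GluN2B, with slower channel closing) differed by -0.27 ± 0.09 in WT vehicle (adjusted p = 0.0203) and was called in 3 of 4 conditions. Grin2c, found in glia and cerebellar granule cells, was at the edge of the threshold in WT vehicle (-0.20 ± 0.08, adjusted p = 0.0492), and 14 of 21 alternative settings lost it. Grin2d, known from interneurons, differed by -0.02 to -0.24 with no call.

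Kainate receptor genes moved apart from each other. Grik3, a low-affinity subunit, was higher in striatum: the 5 WT vehicle striatal arrays read 8.58, 8.85, 8.61, 8.81 and 8.81, against 7.03 to 7.62 (median 7.39) on 6 hippocampal arrays. Those groups did not overlap, and the difference was 1.37 ± 0.14 (2.59-fold, adjusted p = 3.44e-10), with 0.72 to 1.13 in the other conditions. Its other probe set, of lower signal, gave -0.11 to 0.13 and no call, so the difference rests on 1 probe set.

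Grik4, a high-affinity subunit that needs a low-affinity partner and is known from hippocampal CA3 neurons, went the other way. The 5 WT vehicle striatal arrays read 6.83, 7.06, 6.74, 6.86 and 7.06, against 7.88 to 8.24 (median 8.13) in hippocampus, and over all arrays the 20 striatal values (at most 7.30) lay below the 22 hippocampal ones (at least 7.42). The WT vehicle difference was -1.19 ± 0.13 (2.28-fold lower, adjusted p = 2.50e-09). Grik1, a low-affinity subunit known from interneurons, differed by -1.07 ± 0.21 in WT vehicle (adjusted p = 7.31e-05) and by -1.28 to -1.67 elsewhere, with striatal signals of 4.17 to 5.97 that lie below the array medians. Grik2, the most common low-affinity partner, was called in the WT inhibitor arrays alone (0.50 ± 0.20, adjusted p = 0.0418) and not without hippocampal array 13 (0.48, adjusted p = 0.0726). Its second probe set was called higher in striatum in all 4 conditions (0.65 to 0.99). Grik5, a high-affinity subunit, was higher in striatum in the WT inhibitor arrays (0.63 ± 0.14, adjusted p = 2.74e-04), and differed by 0.01 to 0.15 with no call in the other 3 conditions. Grid1, of the delta family that binds glycine or D-serine and links synapses through cerebellins, was 0.14 to 0.26 higher, with a call in 2 conditions, both lost without the 8 arrays of doubtful label.

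Metabotropic receptors were mostly higher in striatum, with Grm2 as the exception. Grm2 (mGlu2, a presynaptic brake on glutamate release from cortical and granule cell terminals) read 7.26, 7.25, 6.95, 6.83 and 6.83 on WT vehicle striatal arrays and 8.86 to 9.03 (median 8.94) on hippocampal ones. No striatal array of any group (at most 7.87) reached the lowest hippocampal one (8.49). The difference was -1.92 ± 0.19 in WT vehicle (3.78-fold lower, adjusted p = 8.29e-11) and -2.45 ± 0.18 in the WT inhibitor arrays. Grm3 (mGlu3, of the same group II, abundant in astrocytes) had the opposite direction, 1.10 ± 0.11 (2.15-fold higher, adjusted p = 1.91e-10), with 10.68 to 11.24 in striatum and 9.58 to 10.55 in hippocampus, where the 10.55 was array 13. The mean of 8 astrocyte markers was lower in striatum (9.75 to 10.2) than in hippocampus (10.3 to 10.9), opposite to Grm3; its part in the result was not tested.

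Grm4 (mGlu4, a group III receptor of striatal and other terminals) was 1.08 ± 0.17 higher in WT vehicle (2.11-fold, adjusted p = 1.68e-06) and 1.23 to 1.47 higher elsewhere, without overlap (7.52 to 8.46 against 6.16 to 7.40). Grm5 (mGlu5, the main group I receptor of striatal projection neurons) was higher by a smaller amount, 0.33 ± 0.08 in WT vehicle (adjusted p = 0.00121). Its ranges, 11.01 to 11.50 and 10.80 to 11.26, overlapped, and in the labelled KO groups it passed narrowly (adjusted p = 0.0433 and 0.0451). Grm7 (mGlu7, at the release site of terminals) was called in 3 conditions, with 0.34 ± 0.08 in WT vehicle. Grm8, the third group III gene measured, differed by 0.01 to 0.26 with standard errors of 0.22 to 0.26, so neither equality nor a difference of that size is shown.

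GABA-A subunits held both the lowest and the highest difference of the 30 genes in WT vehicle tissue. Gabra5 (alpha 5, which gives the extrasynaptic receptors of hippocampal pyramidal cells) read 7.338, 7.996, 7.043, 6.174 and 7.505 on WT vehicle striatal arrays and 10.00 to 10.34 (median 10.22) on hippocampal ones. The difference was -2.99 ± 0.23 (7.93-fold lower, adjusted p = 2.43e-13), and -2.01 to -2.52 in the other conditions. All 20 striatal values (6.17 to 8.52) lay below all 22 hippocampal ones (8.89 to 10.44), where the 8.89 was array 13 and the next lowest 9.98. Gabrd (delta, a subunit of tonic inhibition) read 9.86, 9.77, 9.94, 10.03 and 9.82 in WT vehicle striatum against 7.80 to 8.21 (median 8.06) in hippocampus. It was 1.87 ± 0.13 higher in striatum (3.65-fold, adjusted p = 7.99e-15) and 1.96 to 2.05 higher in the other conditions, again with no overlap. Its other probe set, at a mean of 4.32, showed no call (-0.18 to 0.13).

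Gabra4 (alpha 4, the usual partner of delta in the forebrain) was also higher in striatum, with 10.41 to 10.85 against 9.74 to 10.16 and a WT vehicle difference of 0.63 ± 0.07 (1.55-fold, adjusted p = 1.13e-09). Gabrg3, a rarer gamma subunit, was 1.09 ± 0.12 higher (2.13-fold, adjusted p = 3.92e-09), with 7.43 to 8.49 against 6.30 to 7.05. Of its 4 probe sets 3 were called higher in WT vehicle (0.78 to 1.16). Gabra2 (alpha 2, at synapses on the axon initial segment) differed by -0.50 ± 0.09 in WT vehicle and by -0.26 to -0.46 elsewhere. Of its 5 probe sets, 2 were called lower in WT vehicle, 1 in WT inhibitor, 4 in labelled KO vehicle and 2 in labelled KO inhibitor arrays. No Gabra2 probe set was called higher, and the differences ran from -0.78 to -0.035. Gabrb1 (beta 1) differed by -0.62 to -0.73, with 10.38 to 10.81 in striatum and 10.95 to 11.43 in hippocampus and thus no overlap. Gabra3 passed in the WT inhibitor arrays alone (-0.78 ± 0.27, adjusted p = 0.0195) and not without hippocampal array 13 (-0.61, adjusted p = 0.0752). Gabrb2, part of the most common GABA-A receptor, and Gabrg1 differed by at most 0.22 in either direction, with standard errors of 0.10 to 0.15. Of the 5 probe sets of Gabrb2, the one of lowest signal was called lower in WT vehicle (-0.90 ± 0.30) and differed by -0.59 ± 0.29 in the WT inhibitor arrays with no call. Without the doubtful arrays the Gabrb2 difference in the WT inhibitor arrays was 0.15 in place of -0.05, neither of them called.

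Several of these genes are direct neighbours, and neighbours differed in direction. On chromosome 7, Gabrg3 and Gabra5 follow each other with no coding gene between them in the RefSeq table (assembly GRCm38.p6), and the first was higher and the second lower in striatum in all 4 conditions. On chromosome 5, the order is Gabrg1, Gabra2, Cox7b2, Gabra4, Gabrb1: Gabra2 and Gabrb1 were lower in striatum, Gabra4 between them was higher, and Gabrg1 had no call. Across the 21 genes with several probe sets, none had probe sets called in opposite directions in any of the 4 conditions.

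**Figure D2:**
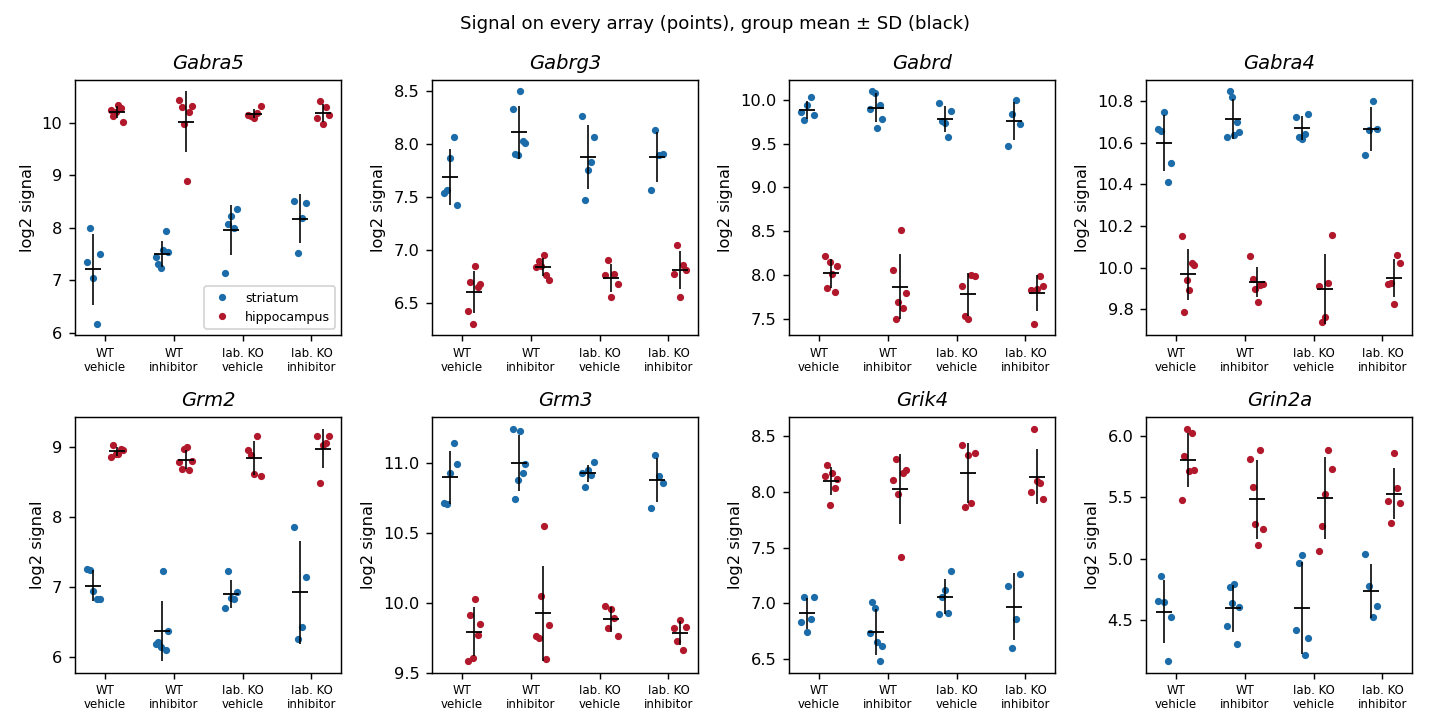
Log2 signal (y axis) of 8 receptor genes on each array (points, blue striatum, red hippocampus) in 4 conditions (x axis), with the group mean ± SD in black. The 8 genes shown are all from those whose regions do not overlap, while other receptor genes, such as Gria1 and Grm5, do overlap. The share of all genes without overlap was not counted. Hippocampal array 13 is the low point of Gabra5 (8.89) and Grik4 (7.42) in the WT inhibitor group.

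In striatum of WT mice the inhibitor moved no receptor gene past the threshold with all arrays (limma, 0 of 30; 0.181% of all genes passed), and 7 of 30 (23.3%) had an unadjusted p under 0.05, against 9.57% of all genes. The gene nearest to the threshold was Grik3: its vehicle arrays read 8.58 to 8.85 and its 6 inhibitor arrays 8.04 to 8.66 (median 8.32), with a difference of -0.39 ± 0.10 (adjusted p = 0.144). Grik5 read 10.25, 10.21, 10.04, 10.41 and 10.19 with vehicle and 10.01 to 11.21 (median 10.81) with the inhibitor, a difference of 0.54 ± 0.19 (adjusted p = 0.314). Grm2 differed by -0.65 ± 0.23 (adjusted p = 0.333), Gabrg3 by 0.42 ± 0.15 (adjusted p = 0.320) and Gria3 (GluA3) by -0.25 ± 0.10 (adjusted p = 0.421).

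Within the WT inhibitor group Grik5 and Gria3 varied widely. Grik5 lay at 10.95, 11.21 and 11.12 on WT inhibitor arrays 10, 11 and 12, at 10.60 and 10.67 on arrays 13 and 15, and at 10.01 on array 14. The labelled KO vehicle array 25 read 11.04, while the other 13 arrays of the WT vehicle and labelled KO groups read 9.95 to 10.41 and the 22 hippocampal arrays 9.93 to 10.36. Gria3 showed the mirror image: 10.19, 10.37 and 10.29 on WT inhibitor arrays 10, 11 and 12, and 10.30 on labelled KO vehicle array 25, below the 10.53 to 10.92 of those 13 arrays. On WT inhibitor arrays 13, 14 and 15 it read 10.69, 10.73 and 10.55, inside that range, whereas Grik5 on arrays 13 and 15 lay above its own range.

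The same 4 arrays stood apart in markers of endothelial cells, which line blood vessels. The mean of all 6 listed markers was 8.059, 8.139 and 8.207 on WT inhibitor arrays 10, 11 and 12 and 8.098 on labelled KO vehicle array 25, against 7.423 to 7.706 on the other 16 striatal arrays. For 4 of the 6 markers (Cldn5 and Esam first in the list) these 4 arrays lay above all 16, and none of the 6 was near the bottom of the scale (lowest 5.651). The part of these markers in the Grik5 and Gria3 values, in the comparison by drug and by region alike, was not tested.

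Without the 4 striatal arrays of doubtful label (3 inhibitor against 5 vehicle arrays left in WT), 3 receptor genes passed, where 4.23% of all genes did. Grik5 was 0.87 ± 0.09 higher with the inhibitor (1.83-fold, adjusted p = 4.26e-05), Gria3 -0.43 ± 0.08 (1.35-fold lower, adjusted p = 0.00645) and Grik3 -0.42 ± 0.11 (1.33-fold lower, adjusted p = 0.0410). The 3 inhibitor arrays left are 10, 11 and 12. Their endothelial marker means were 8.059 to 8.207, against 7.54 ± 0.12 (SD, n = 5) in WT vehicle. The 3 calls thus stand beside that marker shift, whose part in them was not tested. Grik3 read 8.19 to 8.48 on these arrays and 8.04 to 8.66 on the WT inhibitor arrays left out. The endothelial marker means of the latter were 7.534 to 7.665. With array weights over all arrays Grik3 alone passed (-0.38, adjusted p = 0.0394), as it did without the array of the highest Gapdh 3′ minus 5′ difference in each group (-0.44). The other probe set of Grik3 differed by 0.01 ± 0.08, and that of Gria3 by -0.24 ± 0.13. Grik5 had 1 probe set.

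**Figure D3:**
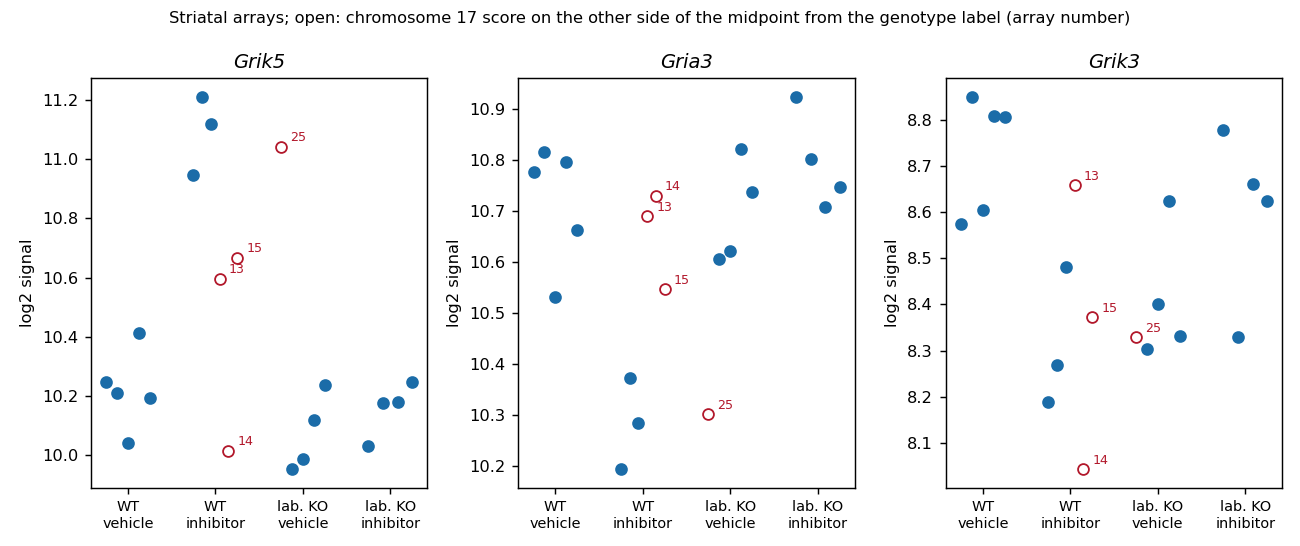
Log2 signal (y axis) of Grik5, Gria3 and Grik3 on each of the 20 striatal arrays by group (x axis); open points with their array number have a chromosome 17 score on the other side of 0.5 from their genotype label. Labelled KO vehicle array 25 lies among WT inhibitor arrays 10, 11 and 12 for Grik5 and Gria3.

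The genotype label alone moved no receptor gene in vehicle-treated striatum (0 of 30 by limma; 0.137% of all genes), and 3 (10%) had an unadjusted p under 0.05, against 5.94% of all genes. Gabra5 read 7.145, 8.068, 8.225, 8.004 and 8.366 on labelled KO vehicle arrays, 0.75 ± 0.27 above WT vehicle (adjusted p = 0.566), and array 25 was the lowest of them. Grik3 differed by -0.33 ± 0.11 (adjusted p = 0.429). Grm4 shares chromosome 17 with Pde10a and differed by 0.07 ± 0.15. In labelled KO striatum the inhibitor moved 0 of 30 (0% of all genes; 0 with an unadjusted p under 0.05, against 1.41%), with differences from -0.17 to 0.21. The test of whether the inhibitor acted differently in WT and labelled KO striatum gave 0 of 30 (0% of all genes) and 3 (10%) with an unadjusted p under 0.05, against 7.40% of all genes: Gria3 (-0.42 ± 0.15), Grik3 (-0.59 ± 0.15) and Grik5 (0.65 ± 0.28). Without the doubtful arrays, Grik5 (0.79 ± 0.13, adjusted p = 0.00543) and Gria3 (-0.53 ± 0.12, adjusted p = 0.0402) passed this test, where 0.868% of all genes did, and without the arrays of highest Gapdh difference Grik3 did (-0.78). These contrasts share the WT and the labelled KO vehicle arrays.

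In hippocampus 0 of 30 passed in each of 4 comparisons, and 0% of all genes did so in each. For the inhibitor in WT, 6 receptor genes (20%) had an unadjusted p under 0.05, against 10.7% of all genes, with the smallest for Gabrg3 (0.23 ± 0.09, adjusted p = 0.376). For the genotype label there were 3 (10%, against 6.62%): Grik1 (0.34 ± 0.12), Grik2 (-0.29 ± 0.10) and Grin3a (0.28 ± 0.12), with adjusted p from 0.616 to 0.710. The inhibitor in labelled KO hippocampus gave 0 (against 3.82%), with differences of -0.19 to 0.23. The difference between the drug effects in WT and labelled KO gave 3 (10%), no more than the 11.8% of all genes. Grik5, at 10.06 to 10.28 on the 6 WT inhibitor arrays and 10.04 to 10.36 on the 6 vehicle arrays, differed by -0.05 ± 0.06 in this region.

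**Figure D4:**
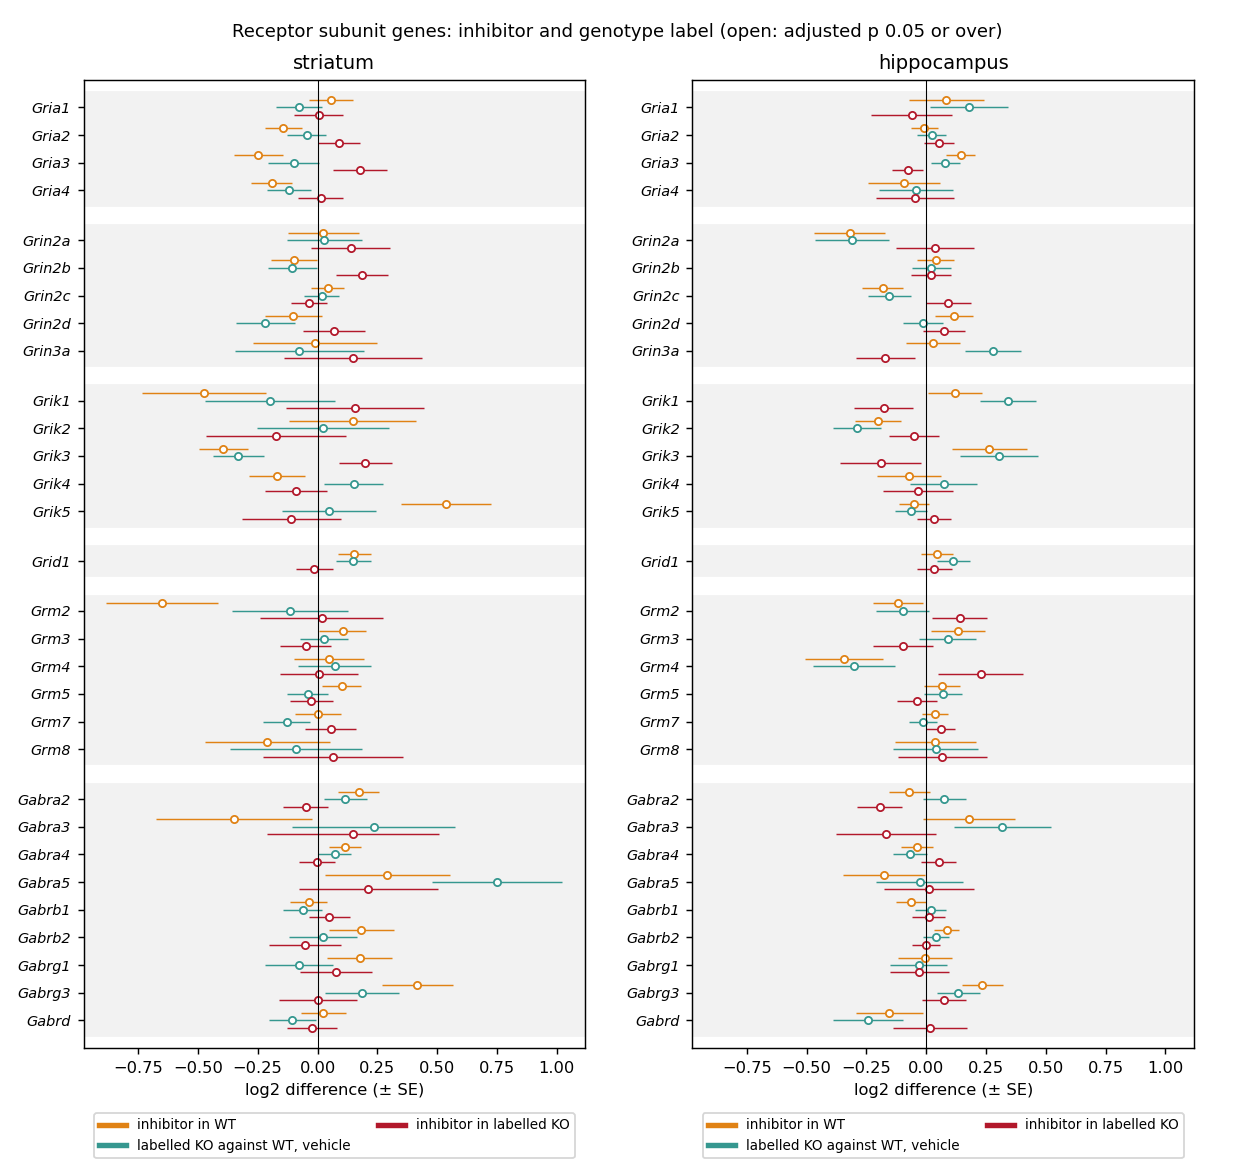
Log2 differences (x axis, ± SE) of 30 receptor genes for the inhibitor in WT, the genotype label under vehicle, and the inhibitor in labelled KO, in striatum (left) and hippocampus (right). All points are open, with an adjusted p of 0.05 or over; Grm2 (-0.65), Grik5 (0.54) and Gabra5 (0.75) are the farthest from 0 in striatum.

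The drug effect in WT was then compared between regions directly. With all arrays 0 of 30 passed (0.214% of all genes) and 5 (16.7%) had an unadjusted p under 0.05, against 12.7% of all genes, among them Gria3 (-0.39 ± 0.12, adjusted p = 0.134), Grik3 (-0.66 ± 0.20, adjusted p = 0.134) and Grik5 (0.59 ± 0.20, adjusted p = 0.206). Leaving out striatal WT inhibitor array 14 brought Gria3 (-0.44) and Grik5 (0.74) past the threshold. Without the 8 doubtful arrays Grik5 differed by 0.89 ± 0.12 (adjusted p = 1.05e-05) and Gria3 by -0.59 ± 0.09 (adjusted p = 1.63e-04), where 4.31% of all genes passed. The effect of the genotype label differed between regions for 0 of 30 (0.0495% of all genes), with 2 (6.67%) at an unadjusted p under 0.05 against 5.29% of all genes, Grik3 (-0.63 ± 0.20) and Gabra5 (0.78 ± 0.34).

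Several receptor genes varied between striatal arrays of the same group together with markers of glutamatergic neurons, a cell type that the striatum itself lacks and the neighbouring cortex holds. The mean of 8 such markers ran from 6.12 to 8.84 over the 20 striatal arrays, against 9.31 to 9.61 in hippocampus. Its WT group means were 7.55 ± 0.75 (SD, n = 5) with vehicle and 6.61 ± 0.52 (n = 6) with the inhibitor. In the labelled KO groups they were 7.68 ± 0.18 with vehicle (n = 5) and 7.80 ± 1.02 with the inhibitor (n = 4). With the groups as terms, limma gave a positive slope on this mean for 6 of 30 receptor genes and a negative one for 0, against 5.72% and 1.78% of the 18185 genes tested. They were Gabra3 (0.74 ± 0.13 log2 units per unit, adjusted p = 8.29e-04), Grin3a (0.56 ± 0.11, adjusted p = 0.00272), Gabra5 (0.53 ± 0.12, adjusted p = 0.00975), Grm2 (0.51 ± 0.09, adjusted p = 0.00169), Grik1 (0.48 ± 0.13, adjusted p = 0.0275) and Gria4 (0.15 ± 0.04, adjusted p = 0.0443). Of these 6, 5 have a higher signal in hippocampus in at least 1 condition and Gria4 does not. Correlations with the marker mean were also tested by permuting arrays within groups, adjusted over the 30 genes only. They passed for all of the 6 but Grik1 (adjusted p = 0.052). By rank Grm2, Grin3a and Gabra5 passed (adjusted p = 0.0494 each), and Gabra3, Grik1 and Gria4 did not (0.062 to 0.065). All genes were not tested in this way.

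The count of slopes called by limma rested on single arrays. It was 2, both positive, without labelled KO inhibitor array 35 (1.42% of all genes positive) and 3, all positive, without WT vehicle array 4 (3.00%). It was 17 without WT inhibitor array 13, the array with the highest marker mean of its group: 10 positive and 7 negative, against 13.3% and 8.84% of all genes. These 3 arrays had the highest Gapdh 3′ minus 5′ differences of the 20 striatal arrays. They read 0.674 (array 35), 1.054 (array 4) and 0.657 (array 13), and the next highest was 0.595. The part of this difference in the slopes was not tested. Leaving out each of 20 arrays in turn, Grm2 and Gabra3 were called every time, Grin3a 19 times, Gabra5 18, Grik1 15 and Gria4 5 times. Without the doubtful arrays 16 were called, 10 positive and 6 negative, against 15.0% and 10.4% of all genes. With the marker mean as a covariate in the drug and genotype fits, 0 of 30 passed, as without it. The differences of Grm2 and Gabra3 between WT inhibitor and vehicle striatum thus stand beside a difference in these markers of the same sign, whose part in them was not tested.

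**Figure D5:**
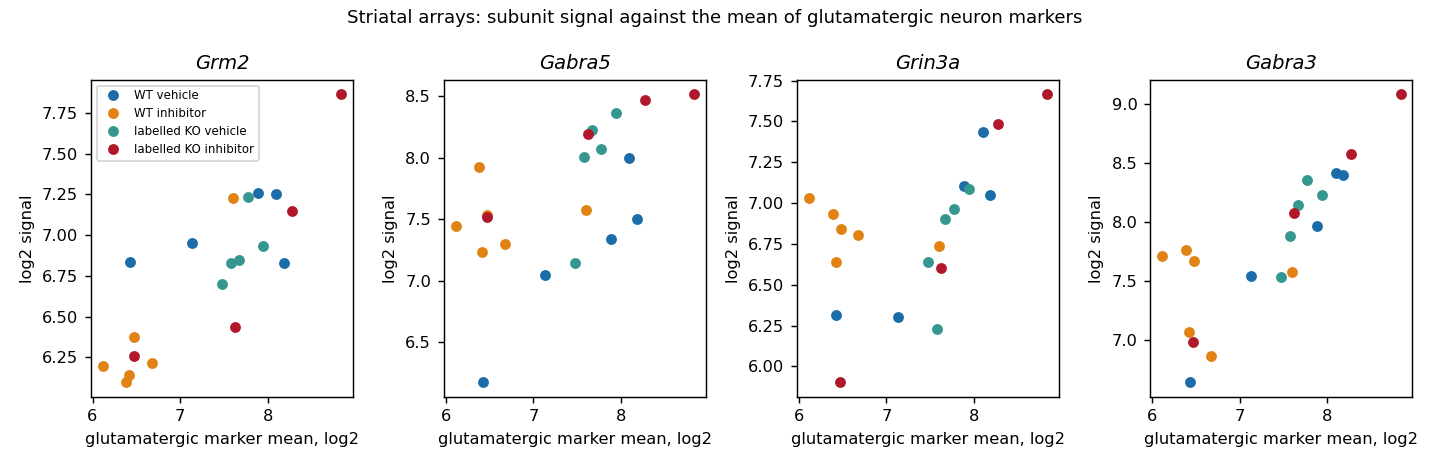
Log2 signal of Grm2, Gabra5, Grin3a and Gabra3 (y axis) against the mean log2 signal of 8 glutamatergic neuron markers (x axis) on the 20 striatal arrays, coloured by group. Signals rise with the marker mean, and 5 of 6 WT inhibitor arrays lie at its low end.

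Proteins that anchor, traffic or modulate these receptors also differed by region. Of 34 listed auxiliary and scaffold genes 32 were measured; 12 were higher and 8 lower in WT vehicle striatum (15.9% and 17.9% of all genes), and in all 4 conditions 9 were higher and 7 lower (7.34% and 10.1% of all genes). By the smallest p in WT vehicle they were led by Cacng4, an auxiliary AMPA subunit (2.12 ± 0.14, 4.33-fold higher), Neto2, an auxiliary kainate subunit (1.33 ± 0.09), and Homer2, a scaffold of group I metabotropic receptors (-2.16 ± 0.21, 4.47-fold lower). In the WT inhibitor, labelled KO vehicle and labelled KO inhibitor arrays 14, 14 and 11 were higher (18.4%, 12.5% and 10.6% of all genes) and 8 were lower each time (17.2%, 14.8% and 15.5%). By limma none of the 32 was called in any drug or genotype comparison (0 to 0.214% of all genes), where 0 to 7 had an unadjusted p under 0.05. It was 7 for the inhibitor in WT striatum (9.57% of all genes) and 7 for the difference of this effect between regions (12.7%). The other comparisons within a region gave 0 to 2, against 1.41% to 11.8% of all genes.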

How the data were processed

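The deposited values are log2 signals of the authors' own RMA run, as the submitters' processing notes record; per the labels' protocols, Trizol-extracted total RNA was turned into biotinylated cRNA. No detection calls or raw intensities were used here. Of 45101 probe sets 34945 named 1 gene, of which 34741 were matched to current RefSeq symbols by gene ID and 204 kept the platform's symbol; 932 named several genes and were left out. Each gene was represented by its probe set of highest mean.

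Groups were compared by lmFit and eBayes of limma (version 3.58.1, R 4.3.3; Benjamini-Hochberg over 18193 genes, threshold 0.05), in 1 fit of 4 groups per region and 1 fit of 8 groups for contrasts between regions; the scripts were tested on simulated data. All 30 receptor genes are reported; of the auxiliary and scaffold list, up to 3 per comparison with the smallest p are named. Members, lists and tests were chosen with earlier results of these data known. The slope on glutamatergic markers and the settings without doubtful or high-Gapdh arrays were added after seeing the data. Same-numbered arrays of both regions did not deviate together (20 pairs, correlations -0.38 to 0.31, median -0.04), and the numbers were not taken to pair samples. This check cannot exclude that equal numbers mark the same mouse, as deviations particular to each dissection could hide it. Labelled KO vehicle array 25 and WT inhibitor array 14 had a doubtful chromosome 17 score in both regions. The other doubtful arrays had it in a single region. The most alike arrays correlated at 0.997 and none were identical. The number of arrays limits the precision.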

Additional observations from a re-analysis of the deposited data

Results flagged for a closer look

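Single arrays stood away from the rest of their group (by Dixon's gap-to-range criterion) in 12 of 240 gene and group sets, on 7 arrays; chance flags about 1 in 20 groups. In hippocampal WT inhibitor tissue, array 13, the one with low dentate and CA markers, was lowest for Gria1 (11.06, next 11.8), Grik4 (7.42, next 7.98), Gabra2 (9.46, next 9.86) and Gabra5 (8.89, next 9.98). Array 15 of that group was highest for Gria3 (10.87, next 10.8). Hippocampal labelled KO inhibitor array 35 was lowest for Grik2 (6.58, next 7.05) and Grm2 (8.49, next 9.04) and highest for Grik4 (8.57, next 8.1). Hippocampal WT vehicle array 1 was highest for Grin2c (8.57, next 8.16). In striatum, labelled KO vehicle array 25 was highest for Grik5 (11.04, next 10.24), array 26 of the same group was lowest for Grm5 (11.16, next 11.32), and WT inhibitor array 13 was highest for Grm2 (7.23, next 6.38).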

How the results depend on the processing

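No called difference of a receptor gene changed sign under any setting tried, but uncalled ones did: Gria4 between regions went from 0.28 to -0.01 in WT vehicle and from 0.18 to -0.01 in the WT inhibitor arrays when probe sets were averaged, and 46 of 420 differences changed sign without the doubtful arrays, 0 of them called with or without those arrays. Counts of receptor genes called between regions (20, 24, 20 and 17 in WT vehicle, WT inhibitor, labelled KO vehicle and labelled KO inhibitor) ran over 18 to 20, 22 to 25, 17 to 20 and 15 to 20 when each array was left out in turn. Of all 18193 genes, 4837 to 6754, 6061 to 6362, 4393 to 4797 and 3594 to 5042 passed in these runs. With all arrays 6160, 6477, 4967 and 4745 of all genes did. With the replicate number as a block the receptor gene counts were 19, 25, 20 and 17. For both region differences of drug and genotype effects the count was 0. The arrays of both regions share only a number, and the block changed no count by over 1.5 times. For the inhibitor in WT striatum the count of 0 became 1 with array weights, 3 without the arrays of doubtful chromosome 17 score (4.23% of all genes) and 1 when each group lost its array of highest Gapdh difference. For its difference between WT and labelled KO striatum it became 2 (0.868% of all genes) and 1 under the last 2 settings. For its difference between regions it became 2 with array weights and 2 without the doubtful arrays (4.31% of all genes). With single arrays left out it was 0 to 2, where 19 to 154 of all genes passed. Shares of all genes are not given for the settings with array weights, with the block or without the arrays of highest Gapdh difference, which limits what those counts show. All other drug and genotype counts stayed at 0, also with single arrays left out. The marker slope count of 6 became 16 without the doubtful arrays and ran from 2 to 17 with single arrays left out. The cause was not tested. The low-signal filter kept 12123 genes and 29 of the receptor genes. Signals near the array medians (Grin2a, Grik1, Grm8) carry no detection call, which limits what a difference in them shows.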
